A study of Mus musculus with 2 samples.

Results

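Endothelin signalling was described through 5 of the 32285 genes in the count tables: the ligand genes Edn1 and Edn3, the converting enzyme gene Ece1, and the receptor genes Ednra and Ednrb. The members were taken by gene symbol, and the question was which tumor cells hold transcripts of the ligand and which hold those of the receptors. The cells came from subcutaneous, syngeneic fibrosarcomas of WT C57BL/6 mice. A magnetic column gave an eluate (Magnetic Column Enriched, the iron-positive library) and a flowthrough (Magnetic Column Flowthrough, the iron-negative library). Each fraction gave 1 single-cell library, and the sources used here name neither the tumor line nor how many tumors were used. The data hold no measure of iron. With 1 library per fraction there is no replicate check and no test, and every interval is an exact 95% interval that covers counting error only.

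Endothelins are short peptides that vessels use to set their own tone. A long precursor is trimmed by furin-like proteases to an inactive intermediate, and the converting enzyme encoded by Ece1 cuts it to the active peptide. The Edn1 peptide binds both receptors, while the Edn3 peptide prefers the receptor encoded by Ednrb. The Ednra receptor on smooth muscle and pericytes drives contraction, and the Ednrb receptor on endothelium triggers nitric oxide and prostacyclin release and removes the peptide from the circulation.

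The coding bases of the mature peptides are shown because they are what makes both ligand genes members of 1 family. Both were read from GENCODE M21 transcripts (mm10), 5′ to 3′, and capitals mark the bases that differ between them. The Edn1 stretch lies at chr13:42303649-42303711 and the Edn3 stretch at chr2:174761749-174761811, each on the plus strand, in the coding part of exon 2.
Edn1: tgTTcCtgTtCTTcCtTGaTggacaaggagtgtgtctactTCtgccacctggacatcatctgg
Edn3: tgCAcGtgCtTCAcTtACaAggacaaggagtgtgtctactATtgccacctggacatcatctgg
Over these 63 bases, 50 were the same (79.4%), and 15 of the 21 encoded residues were the same. The differences sit near the 5′ end, apart from a pair of adjacent bases, and the last stretch is identical. The libraries count tags from the 3′ ends of transcripts, so the counts do not read this stretch.

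Counts are of UMIs (unique molecular identifiers, each standing for 1 captured transcript), with 129921053 UMIs over 13668 iron-positive barcodes and 132796517 UMIs over 10124 iron-negative barcodes. Cells with at most 15% mitochondrial UMIs and at least 200 genes were kept, which left 12143 iron-positive cells (median 7349 UMIs) and 9403 iron-negative cells (median 13017 UMIs). The libraries shared 85 barcodes, 0.622% of the iron-positive and 0.840% of the iron-negative barcodes. Detected markers gated the iron-positive cells into 666 endothelial, 106 pericyte or smooth muscle, 256 mesenchymal and 9176 phagocyte cells. In the iron-negative library the same gates took 14 endothelial, 1 pericyte or smooth muscle, 67 mesenchymal and 9086 phagocyte cells. The mesenchymal markers do not separate tumor cells from fibroblasts. Each class with at least 10 cells held all markers of its own list at 10 CPM or more, where CPM is the number of UMIs per 1000000 UMIs of the same cells. The same markers set the gates, so this is no independent check. Iron-positive pericyte-gated cells also held a median of 6 of the 14 mesenchymal markers, which summed to 6202 CPM there. Cells with both stromal and phagocyte markers (343 iron-positive and 54 iron-negative) formed a class set apart by their share of phagocyte-marker UMIs. The stromal gates limited that share but did not exclude the markers. Iron-positive endothelial-, pericyte- and mesenchymal-gated cells held medians of 5, 5 and 6 of the 12 phagocyte markers (900, 727 and 987 CPM summed). Iron-negative endothelial- and mesenchymal-gated cells held a median of 10 (1124 and 950 CPM). The source of these markers was not tested. Iron-positive and iron-negative phagocytes held 23940 and 25610 CPM of them. Another 1469 iron-positive and 133 iron-negative cells stayed ungated. No doublet caller was run.

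Edn1, the ligand gene (chr13:42301476-42307990, plus strand), was highest in endothelial-gated cells of both libraries. Over all kept cells it had 2474 UMIs (19.8 CPM, 19.0 to 20.5) in the iron-positive library and 285 UMIs (2.18 CPM, 1.93 to 2.45) in the iron-negative library, 9.07-fold higher (8.02 to 10.3) in the iron-positive library. Endothelial-gated cells held 1715 of the iron-positive UMIs (69.3%), at 97.5 CPM (92.9 to 102), and a UMI was seen in 281 of 666 cells. The 14 iron-negative endothelial-gated cells held 73 UMIs at 100.7 CPM (78.9 to 127). The ratio of iron-positive over iron-negative was 0.968, with a counting interval of 0.766 to 1.24. The iron-negative UMIs sat in 7 cells, with 29 in 1 cell and 22 in another, a spread that the interval does not cover. Endothelial-gated cells made up 5.49% of iron-positive and 0.149% of iron-negative cells.

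Cells with both stromal and phagocyte markers came next in the iron-positive library, with 225 UMIs of Edn1 (36.9 CPM, 32.3 to 42.1; 9.10% of the total), and ungated cells held 183 UMIs (23.1 CPM, 19.9 to 26.7; 7.40%). Both stood below the endothelial level. Iron-positive mesenchymal-gated cells had 7.29 CPM (5.30 to 9.78), phagocytes 3.52 CPM (3.13 to 3.94) and pericyte-gated cells 1.59 CPM (0.328 to 4.64, from 3 UMIs). Iron-negative mesenchymal-gated cells had 2.52 CPM (1.15 to 4.79) and phagocytes 1.58 CPM (1.37 to 1.82). In the iron-positive library the pericyte and phagocyte intervals overlapped. In the iron-negative library, which held 14 endothelial-gated cells, phagocytes held 196 of the 285 UMIs (68.8%).

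Edn1 in phagocytes sat in few cells. A UMI was seen in 165 of 9176 iron-positive and 103 of 9086 iron-negative phagocytes, and the 10 highest cells held 37.1% and 43.4% of the UMIs. The highest cells had 29 and 28 UMIs in the iron-positive library and 39 in the iron-negative library. Among those 10 cells, 6 iron-positive and 9 iron-negative cells had no endothelial marker, and each held at least 7 of the 12 phagocyte markers in the iron-positive and 11 in the iron-negative library. The phagocyte gate itself needed phagocyte markers and under 4 stromal markers, so these counts were partly set by it. The endothelial marker Cdh5 stood at 9.08 CPM in iron-positive and 1.49 CPM in iron-negative phagocytes. At the Edn1 to Cdh5 ratio of endothelial-gated cells, that much Cdh5 comes with 1.06 CPM of Edn1 in the iron-positive library (30.1% of the phagocyte level) and 0.171 CPM in the iron-negative library (10.8%). In phagocyte states, which are defined below by marker sums, 1 cell could hold much of the Edn1. The Ly6c2 Plac8 state had 11.8 CPM of Edn1 (8.95 to 15.2) in the iron-positive library, where 29 of its 58 UMIs sat in 1 cell, and 3.25 CPM (2.01 to 4.97) in the iron-negative library. The Cd209f Cd163 Lyve1 state had 7.88 CPM (5.55 to 10.8) in the iron-positive library, where 28 of its 37 UMIs sat in 1 cell, and 1 UMI in the iron-negative library. No order of the states was read from these levels.

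Edn3 (chr2:174760619-174784042, plus strand), whose peptide favours the Ednrb receptor, gave 1 UMI in all, in an iron-positive phagocyte, and 0 in the iron-negative library. A count of 0 there allows up to 0.0229 CPM. Edn2, the remaining ligand gene of the family, had 0 UMIs in phagocytes of both libraries. Edn1 was thus the only ligand gene of the 2 members with more than 1 UMI at this depth.

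Ece1 (chr4:137862237-137965229, plus strand), which encodes the converting enzyme, was also highest in endothelial-gated cells and was seen in each of the 4 marker-gated classes. It had 10995 UMIs (87.8 CPM, 86.2 to 89.5) in the iron-positive and 2745 UMIs (20.99 CPM, 20.2 to 21.8) in the iron-negative library, a ratio of 4.18 (4.01 to 4.36). In the iron-positive library it stood at 407 CPM (398 to 417) in endothelial-gated cells, 169 CPM (151 to 188) in pericyte-gated cells, 55.3 CPM (49.5 to 61.6) in mesenchymal-gated cells and 19.8 CPM (18.9 to 20.8) in phagocytes. No neighbours in that order overlapped. In the iron-negative library it stood at 472 CPM (423 to 524) in endothelial-gated cells, 49.9 CPM (42.9 to 57.8) in mesenchymal-gated cells and 17.3 CPM (16.6 to 18.1) in phagocytes.

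Within a class, Ece1 levels were close between the libraries. The ratio of iron-positive over iron-negative was 0.864 (0.775 to 0.965) in endothelial-gated cells, 1.11 (0.921 to 1.34) in mesenchymal-gated cells and 1.14 (1.07 to 1.22) in phagocytes. The direction in phagocytes turned with free RNA. The log2 ratio was -0.47 with 10% free RNA subtracted. After taking out the part that Cdh5 and Rgs5 (a pericyte marker) trace to stromal RNA, 15.2 CPM was left in the iron-positive and 16.5 CPM in the iron-negative library. Phagocytes made up 15.3% of the Ece1 UMIs in the iron-positive and 78.2% in the iron-negative library.

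**Figure D1:**
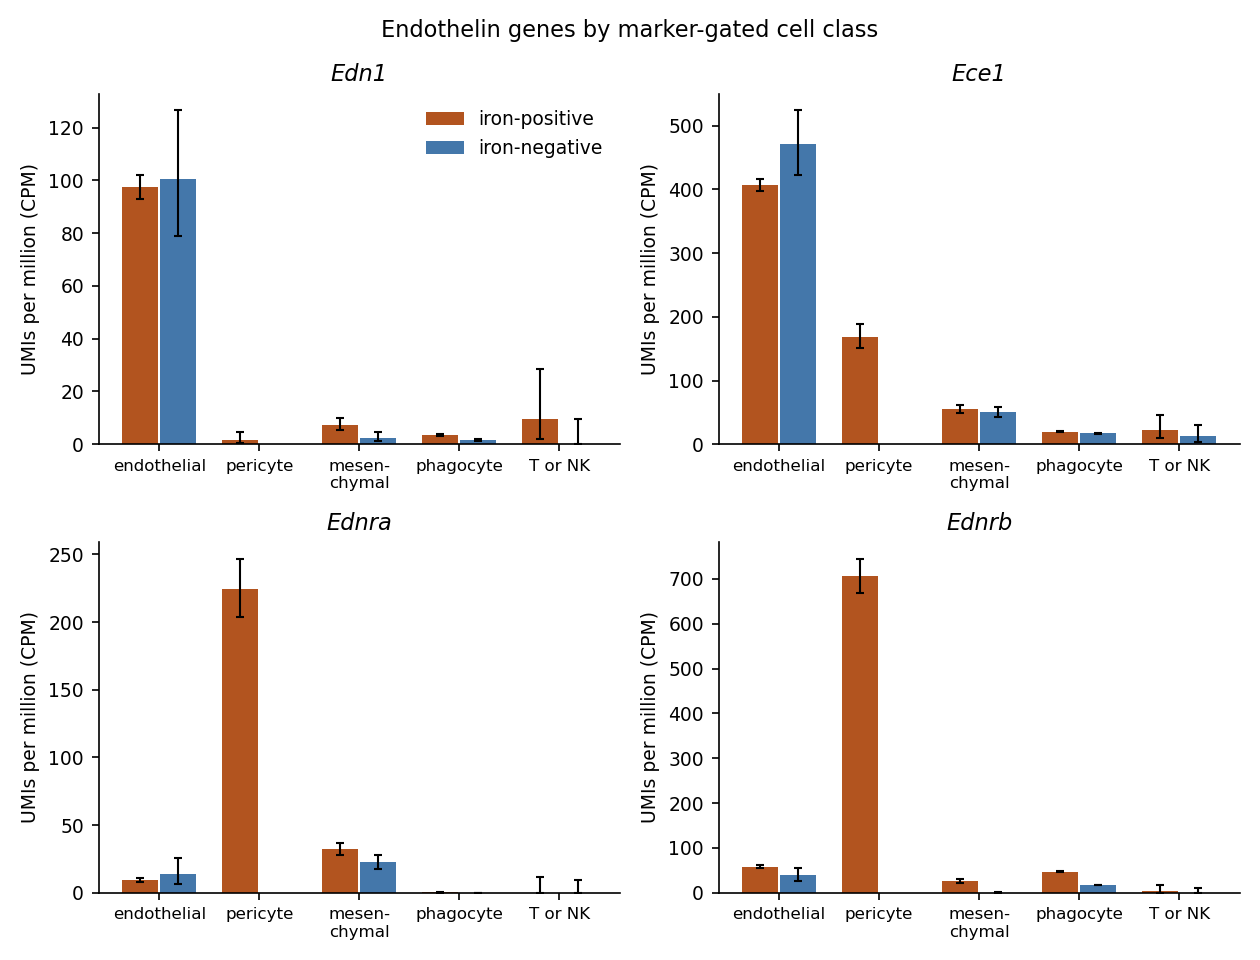
Levels of Edn1, Ece1, Ednra and Ednrb (CPM, linear axes that differ between panels) in marker-gated classes of the iron-positive and iron-negative libraries. Bars are summed UMIs over summed totals, lines are exact 95% Poisson intervals, and classes under 10 cells (iron-negative pericytes) are not drawn. Edn1 and Ece1 are highest in endothelial-gated cells (97.5 and 407 CPM, iron-positive), and both receptor genes in pericyte-gated cells (224 and 706 CPM).

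Ednra (chr8:77663031-77724464, minus strand), the contractile receptor gene, was highest in pericyte-gated cells, the cells around the vessel. It had 914 UMIs (7.30 CPM, 6.83 to 7.79) in the iron-positive and 114 UMIs (0.872 CPM, 0.719 to 1.05) in the iron-negative library. Iron-positive pericyte-gated cells had 224 CPM (204 to 247), and 89 of 106 of them held a UMI. Mesenchymal-gated cells had 32.0 CPM (27.6 to 36.8) in the iron-positive and 22.4 CPM (17.8 to 27.9) in the iron-negative library, a ratio of 1.43 (1.09 to 1.87). In the iron-negative library, which held 1 pericyte-gated cell with 3 UMIs of Ednra, mesenchymal-gated cells carried 80 of the 114 UMIs (70.2%).

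The endothelial gate held 9.55 CPM of Ednra (8.16 to 11.1) in the iron-positive library, and this rested on cells that also carried another stromal list. The 521 endothelial-gated cells that reached no other stromal list had 4 UMIs, or 0.423 CPM (0.115 to 1.08). The remaining 145 cells, with a median of 50039 UMIs against 6811 UMIs, had 20.2 CPM (17.2 to 23.5). In the iron-negative library the 11 endothelial-gated cells of no other list had 0 UMIs, which allows up to 7.26 CPM, and the other 3 cells had 10 UMIs. Rgs5 stood at 260 CPM in all iron-positive and 232 CPM in all iron-negative endothelial-gated cells. All 168 iron-negative UMIs of Rgs5 sat in 1 of the 14 cells.

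Phagocytes held next to no Ednra. The counts were 23 UMIs in 9176 cells (0.271 CPM, 0.172 to 0.406) in the iron-positive library and 7 UMIs in 9086 cells (0.0565 CPM, 0.0227 to 0.117) in the iron-negative library. By the same tracing, the Cdh5 and Rgs5 in iron-positive phagocytes come with 0.104 CPM and 0.191 CPM of Ednra, beside the 0.271 CPM measured. T or NK cells, which serve as a class that should lack the receptor, had 0 UMIs in 51 iron-positive and 29 iron-negative cells. That allows up to 9.70 CPM in the iron-positive and 7.86 CPM in the iron-negative library, both far above the phagocyte levels, so these cells set no background for Ednra.

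Ednrb (chr14:103814625-103844402, minus strand) reached more classes than Ednra did. It had 7432 UMIs (59.3 CPM, 58.0 to 60.7) in the iron-positive and 2229 UMIs (17.0 CPM, 16.3 to 17.8) in the iron-negative library, 3.48-fold higher (3.32 to 3.65) in the iron-positive library. Iron-positive pericyte-gated cells had the highest level, 706 CPM (669 to 745), with a UMI in 92 of 106 cells and up to 72 UMIs in a cell. The lone iron-negative pericyte-gated cell held 37 UMIs of Ednrb among 31150 UMIs. Phagocytes, the most numerous class, held most of the transcripts, with 3968 UMIs (53.4%) in the iron-positive and 2129 UMIs (95.5%) in the iron-negative library.

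Both receptor genes were often seen in the same pericyte-gated cell. Of the 106 iron-positive cells, 79 held UMIs of both receptors, 10 of Ednra alone, 13 of Ednrb alone and 4 of neither. The 88 cells with Myh11 or Cnn1, contractile genes of smooth muscle, had 237 CPM of Ednra (215 to 262) and 725 CPM of Ednrb (685 to 767). The 18 cells with neither had 122 CPM of Ednra (79.9 to 179) and 555 CPM of Ednrb (459 to 665), with a median of 6985.5 UMIs against 17319 UMIs.

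Endothelial-gated cells held Ednrb at 58.1 CPM (54.6 to 61.8) in the iron-positive and 38.6 CPM (25.7 to 55.8) in the iron-negative library. Of this, the 521 iron-positive cells with no other stromal list had 29.7 CPM (26.3 to 33.4) and a UMI in 99 cells, and the 145 others had 91.3 CPM (84.8 to 98.1). The order of levels in the iron-positive library therefore turned on the gate. With all gated cells endothelial cells stood above phagocytes (46.7 CPM, 45.3 to 48.2), and without the cells of more than 1 list they stood below. In the iron-negative library, 21 of the 28 endothelial UMIs of Ednrb sat in 1 cell that also reached another list. The 11 iron-negative cells of no other list had 16.95 CPM (6.81 to 34.9). Among iron-positive endothelial-gated cells, Ednrb was seen in 40.6% of the 281 cells with an Edn1 UMI and in 20.8% of the rest, a description in which the depth of the cells was not matched.

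Mesenchymal-gated cells had 25.7 CPM of Ednrb (21.8 to 30.0) in the iron-positive library and 0.280 CPM, a single UMI in 67 cells, in the iron-negative library. Most of the iron-positive UMIs came from 31 cells that also reached another stromal list, at 75.6 CPM (62.8 to 90.4). The 225 cells without another list had 7.66 CPM (5.31 to 10.7) from 14 cells. Rgs5 stood at 63.9 CPM in the iron-positive and 0.280 CPM in the iron-negative mesenchymal gate. Ednra in the same cells was nearly the same with and without the cells of another list, at 30.4 CPM from 135 UMIs without them.

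**Figure D2:**
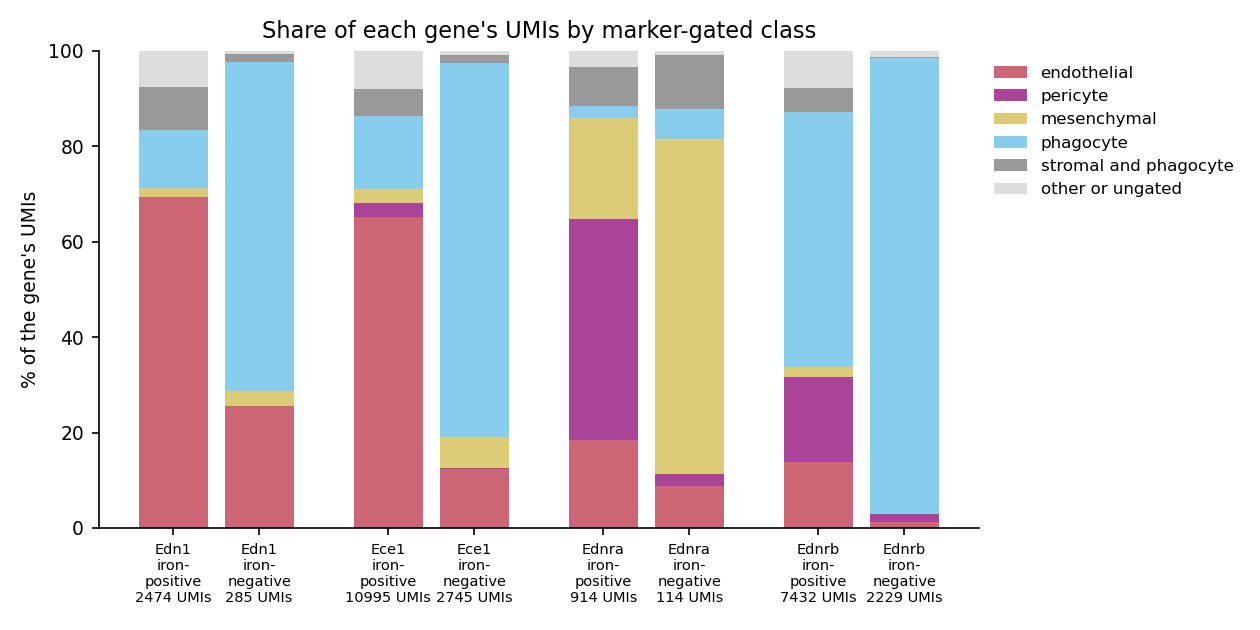
Share of each gene's UMIs (percent of the kept cells' total, printed under each bar) by marker-gated class, with the iron-positive bar left of the iron-negative bar for each gene. Endothelial-gated cells hold 69.3% of iron-positive Edn1, and phagocytes hold 53.4% of iron-positive and 95.5% of iron-negative Ednrb.

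In phagocytes, Ednrb was 2.72-fold higher (2.58 to 2.86) in the iron-positive library, at 46.7 CPM, against 17.2 CPM (16.5 to 17.9) in the iron-negative library. Of the 5 members, 2 reached 10 CPM in either library's phagocytes. Ednrb was past 1.5-fold higher, Ece1 was past 1.5-fold in neither direction, and no member was lower. Over all 7709 genes at that level, 2.19% were higher by 1.5-fold or more and 0.532% were lower. The log2 ratio of Ednrb, 1.44 (1.37 to 1.52), was number 54 from the highest, and the median over all those genes was -0.11. The gene was chosen with this difference known, so its rank is a description. Edn1 in phagocytes, below 10 CPM, was 2.22-fold higher (1.85 to 2.68) in the iron-positive library, and 1.74-fold higher after the part traced by Cdh5 and Rgs5 was taken out. Its log2 ratio was 1.15 as measured and 0.18 with 10% free RNA subtracted.

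A UMI of Ednrb was seen in 1235 of 9176 iron-positive phagocytes (13.5%, 12.8 to 14.2) and 638 of 9086 iron-negative phagocytes (7.02%, 6.51 to 7.57), although the iron-positive cells were shallower (median 8037.5 against 13052 UMIs). With each cell thinned to 2000 UMIs, which left out 1960 iron-positive and 538 iron-negative phagocytes, the shares were 6.92% and 3.36%. T or NK cells held a UMI in 1 of 51 iron-positive cells (1.96%, median 4449 UMIs) and in 0 of 29 iron-negative cells, which allows up to 10.3%. The exact interval of the iron-positive T or NK share, 0.0496% to 10.45%, includes the phagocyte share at 2000 UMIs, so these cells were too few to set a background in either library. The Cdh5 and Rgs5 seen in phagocytes come with 1.36% and 1.29% of the phagocyte Ednrb level in the iron-positive library and 0.381% and 0.0510% in the iron-negative library.

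Among phagocytes, Ednrb was highest in cells with high sums of genes known from tissue-resident and alternatively activated macrophages. States were set as ranges of a marker sum, not types: a cell belonged to a state if it held at least 2 of its markers and its summed share reached the 90th percentile of all phagocytes. In the Retnla Cbr2 state (Retnla, Cbr2, Clec10a; genes of alternatively activated macrophages) Ednrb stood at 388 CPM (370 to 406) in 494 iron-positive cells and 247 CPM (234 to 260) in 552 iron-negative cells. In the Cd209f Cd163 Lyve1 state (lectin and scavenger receptor genes of resident macrophages) it stood at 327 CPM (311 to 344) in 460 iron-positive and 259 CPM (236 to 284) in 136 iron-negative cells. Within 25% of the cut lay 151 iron-positive and 192 iron-negative cells for the first of these states and 21 and 7 for the second.

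The remaining states ran lower. The interferon state (Ifit1, Ifit2, Ifit3, Rsad2) had 96.4 CPM (88.8 to 104) in the iron-positive and 61.3 CPM (55.6 to 67.5) in the iron-negative library. The Mmp12 Cd36 state had 49.0 CPM (45.1 to 53.1) in the iron-positive and 22.0 CPM (13.6 to 33.6) in the iron-negative library. The Mmp9 Pdpn state had 26.6 CPM (23.6 to 29.8) in iron-positive and 20.6 CPM (17.3 to 24.3) in iron-negative cells. Cycling cells had 7.02 CPM (5.57 to 8.72) in the iron-positive and 2.35 CPM (1.68 to 3.18) in the iron-negative library. The MHC class II state had 3.96 CPM (2.63 to 5.72) in the iron-positive and 4.02 CPM (3.17 to 5.02) in the iron-negative library. The Fcrls Cx3cr1 state had 3.18 CPM (1.78 to 5.25) in iron-positive and 1.97 CPM (1.39 to 2.72) in iron-negative cells. The intervals of neighbours overlapped among these last 3 states in each library, so their full order is not set. The highest and the lowest of them did not overlap. In the iron-positive library cycling cells lay above the Fcrls Cx3cr1 state, and in the iron-negative library the MHC class II state lay above the Fcrls Cx3cr1 state.

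Some of these levels rested on cells that also belonged to the Cd209f or Retnla state. In the interferon state these were 16.2% of the iron-positive and 16.9% of the iron-negative cells. Without them it had 41.2 CPM (35.8 to 47.1) in the iron-positive and 11.65 CPM (9.03 to 14.8) in the iron-negative library, and the ratio was 3.53 (2.67 to 4.73) in place of 1.57 (1.38 to 1.79). The MHC class II state without them had 3.27 CPM (2.07 to 4.90) in the iron-positive and 1.66 CPM (1.13 to 2.36) in the iron-negative library, a ratio of 1.97 (1.10 to 3.49) in place of 0.984 (0.615 to 1.53). The near equality of the libraries in that state thus held only with the shared cells counted in. Cycling cells without them had 4.42 CPM (3.28 to 5.83) in the iron-positive and 1.29 CPM (0.806 to 1.95) in the iron-negative library.

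The Ly6c2 Plac8 state, marked by monocyte genes, was the state whose Ednrb was lower in the iron-positive library with an interval clear of 1, at 56.5 CPM (50.1 to 63.6) in 646 iron-positive cells and 99.05 CPM (91.5 to 107) in 667 iron-negative cells, a ratio of 0.571 (0.494 to 0.658). Of these cells, 8.05% in the iron-positive and 22.3% in the iron-negative library also belonged to the Cd209f or Retnla state. Without them the level was 17.1 CPM (13.5 to 21.4) in the iron-positive and 25.2 CPM (20.99 to 30.05) in the iron-negative library, a ratio of 0.679 (0.504 to 0.910).

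**Figure D3:**
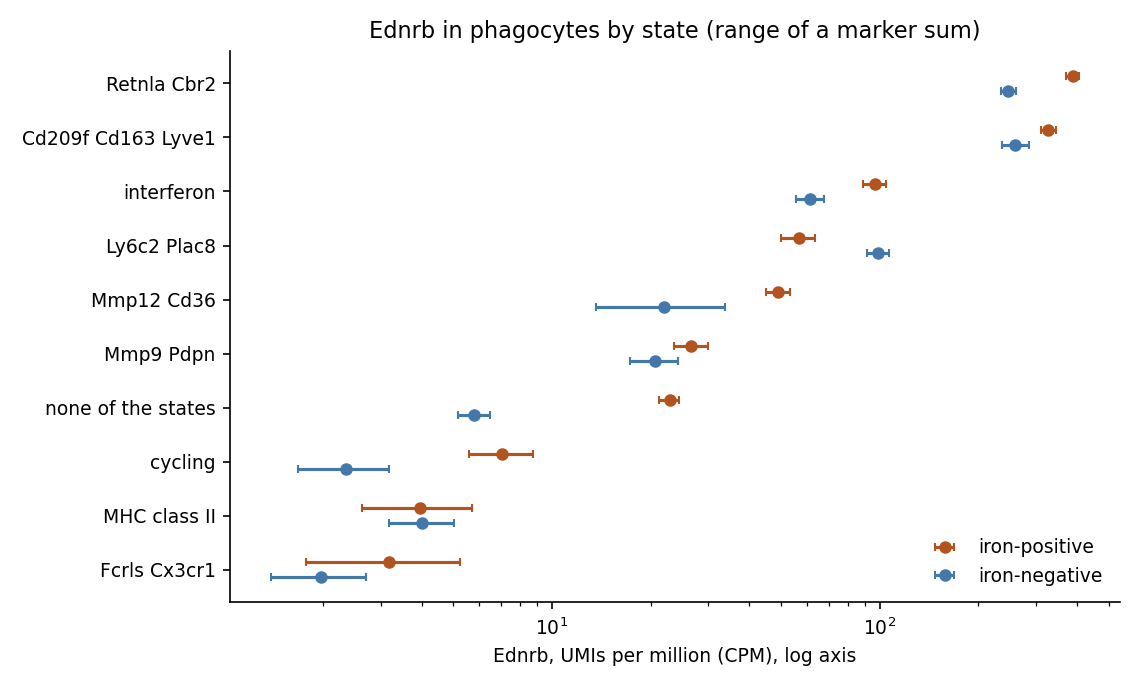
Ednrb level (CPM, log axis) in 9 marker-sum states of phagocytes and in phagocytes of none of them, for the iron-positive and iron-negative libraries. Points are summed UMIs over summed totals and lines are exact 95% Poisson intervals. The Retnla Cbr2 and Cd209f Cd163 Lyve1 states are highest (388 and 327 CPM, iron-positive), and the Ly6c2 Plac8 state is the only one whose iron-positive interval lies below the iron-negative one.

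Ednrb was higher in iron-positive phagocytes both inside and outside the 2 states with the most of it, the Ly6c2 Plac8 state being an exception. Cells in both states had 490 CPM (460 to 520) in the iron-positive and 311 CPM (280 to 344) in the iron-negative library, and made up 2.14% and 1.01% of phagocytes. Cells in the Cd209f state alone had 195 CPM (178 to 213) in the iron-positive and 154 CPM (124 to 190) in the iron-negative library, a ratio of 1.26 (1.01 to 1.60). Cells in the Retnla state alone had 307 CPM (286 to 329) in the iron-positive and 229 CPM (216 to 244) in the iron-negative library. Cells in neither had 20.9 CPM (19.9 to 22.0) in the iron-positive and 5.49 CPM (5.08 to 5.93) in the iron-negative library, a ratio of 3.81 (3.48 to 4.18). That group was 91.7% of iron-positive and 93.4% of iron-negative phagocytes. With the iron-negative mix of these 4 groups applied to both, the ratio was 2.13 in place of 2.72.

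Ednrb was higher in phagocytes with more detected markers of the Cd209f list in both libraries. From 0, 1, 2, 3 to 4 or more markers detected, it stood at 17.2, 97.0, 237, 323 and 416 CPM in the iron-positive library and at 7.29, 78.4, 204, 277 and 335 CPM in the iron-negative library. The iron-negative intervals of neighbours overlapped from 2 markers on, with 20 cells at 3 markers and 32 at 4 or more. As a ratio, the gap between the libraries was widest at 0 markers. In phagocytes with none of the 9 markers of both lists, 5210 iron-positive cells had 9.45 CPM (8.53 to 10.5) and 4119 iron-negative cells had 2.78 CPM (2.33 to 3.28), a ratio of 3.40 (2.79 to 4.17). A shallow cell can miss a marker it holds, so the count was repeated at 2000 UMIs per cell to match depth. It gave 16.3 CPM (13.98 to 18.8) in the iron-positive and 5.30 CPM (4.13 to 6.69) in the iron-negative library, a ratio of 3.07 (2.32 to 4.11). Thinning makes missed markers more common, and 5533 of 7216 iron-positive and 6606 of 8548 iron-negative cells then showed none of the 9. The repeat therefore cannot take cells with missed markers out of this group.

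Most phagocytes with many Ednrb UMIs belonged to these states. At least 5 UMIs were held by 247 iron-positive and 139 iron-negative phagocytes, of which 72.1% and 79.1% belonged to the Cd209f or Retnla state, against 8.26% and 6.56% of all phagocytes. Of those cells, 244 of 247 and 136 of 139 held at least 1 of the 9 markers. None of the pericyte markers was seen in 216 of the 247 iron-positive and 132 of the 139 iron-negative cells. The phagocyte gate limited stromal markers, and the median over all phagocytes was 0 pericyte markers in both libraries.

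**Figure D4:**
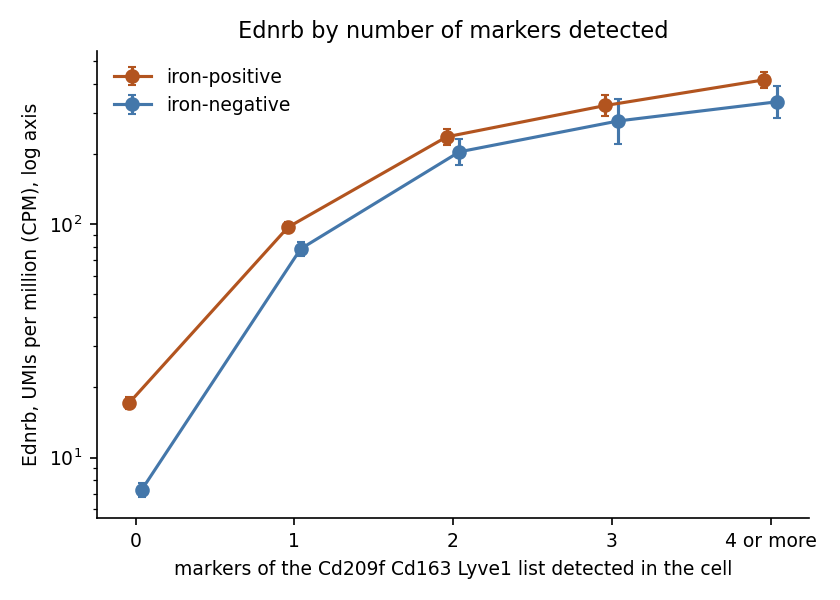
Ednrb level (CPM, log axis) in phagocytes grouped by how many of the 6 markers of the Cd209f Cd163 Lyve1 list were detected in the cell, for the iron-positive and iron-negative libraries, with exact 95% Poisson intervals. The level climbs from 17.2 CPM at 0 markers to 416 CPM at 4 or more in the iron-positive cells, and from 7.29 CPM to 335 CPM in the iron-negative cells.

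Other genes of the pathway, 29 processing enzymes, G proteins, phospholipases, receptor regulators and contraction genes, were measured beside the members in the phagocytes of the libraries. Of the 17 that reached 10 CPM, 1 (5.88%) was higher by 1.5-fold or more, 0 were lower and 16 were neither. Over all 7709 genes at that level, 2.19% were higher and 0.532% were lower, so most genes of any kind lay within 1.5-fold. The median log2 ratio of the 17 was -0.14 beside -0.11 over all 7709 genes. The higher one was Grk5, which encodes a kinase that shuts off active receptors, at 10.7 CPM in the iron-positive and 5.70 CPM in the iron-negative library (1.88-fold, 1.70 to 2.08). It reached the 10 CPM limit only in the iron-positive library, where it was higher, so its place among the 17 is a description. Gnaq, which couples endothelin receptors to calcium release, stood at 123 CPM in the iron-positive and 127 CPM in the iron-negative library. Furin, whose protease trims the precursor, stood at 136 CPM in the iron-positive and 153 CPM in the iron-negative library. Cma1, a mast cell chymase that can also cut the precursor, had 0.435 CPM in iron-positive and 0.0969 CPM in iron-negative phagocytes.

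The contraction and relaxation genes of the same list differed in where they were highest among the 4 main classes of the iron-positive library. Nos3, the endothelial nitric oxide synthase gene, stood at 86.1 CPM in endothelial-gated cells. Mylk, the myosin light chain kinase gene, and Myl9, a light chain gene, stood at 792 CPM and 591 CPM in pericyte-gated cells. Ptgis, the prostacyclin synthase gene, stood at 41.6 CPM in mesenchymal-gated cells, 1.36 CPM in endothelial-gated cells and 0 UMIs in pericyte-gated cells, which allows up to 1.59 CPM. The kinase genes Rock1 and Rock2, which promote contraction, were seen in all 4 classes. Rock1 stood at 255 CPM in pericyte-gated cells, 155 CPM in endothelial-gated cells, 127 CPM in mesenchymal-gated cells and 157 CPM in phagocytes. Rock2 stood at 399 CPM in pericyte-gated cells, 268 CPM in endothelial-gated cells, 226 CPM in mesenchymal-gated cells and 114 CPM in phagocytes.

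**Figure D5:**
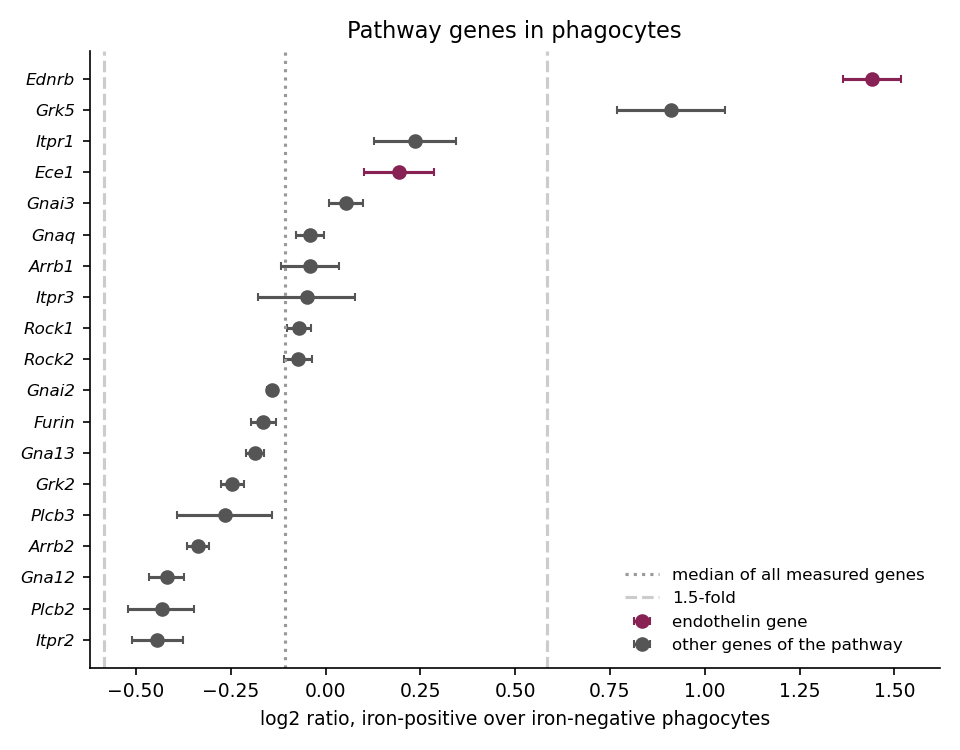
Log2 ratio of iron-positive over iron-negative phagocytes for Ednrb, Ece1 and the 17 other pathway genes at 10 CPM or more, with exact 95% intervals for counting error, the median of all measured genes (dotted) and 1.5-fold (dashed). Ednrb (1.44) and Grk5 (0.91) lie past 1.5-fold, and the rest lie between the dashed lines. Grk5 reached 10 CPM in the iron-positive library only.

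Genes whose pattern was most like each member's were ranked by the Pearson correlation of log2(CPM + 1) over the 8 class sums with at least 50 cells, among 5040 genes at 50 CPM or more in any of them. The sums share libraries and depth, so the values describe these sums. For Edn1 the closest were Kdr (0.961), itself a marker of the endothelial gate, Selp (0.957), Trp53i11 (0.955), Prnd (0.955) and Gkn1 (0.952). For Ece1 they were Sorbs2 (0.982), Pgf (0.975), Crip2 (0.971), Pcdh1 (0.971) and Slc38a2 (0.971). For Ednra they were Adra2a (0.998), Cacna2d1 (0.997), Arhgef17 (0.996), Gpc4 (0.992) and Pde1a (0.991). For Ednrb they were Slc44a1 (0.934), Lgals3bp (0.921), Gcnt2 (0.912), Gdf15 (0.886) and Crk (0.878), the lowest values of the 4 members.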

How the data were processed

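The counts deposited by the authors are unnormalized UMI counts, 1 matrix per library. The submitters' processing notes name mm10 and Cell Ranger 3.1.0, while the headers of the matrices name version 5.0.0. The annotation release and the strand setting are not given in the sources used here, and Gm47118, Gm13012 and 4933431K23Rik overlap Edn1, Ece1 and Ednra on the opposite strand. Of 32285 gene IDs, 32158 matched GENCODE M21.

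The members and lists were chosen with earlier results of these data known. A stromal gate needed at least 4 markers of a list and under 0.5% phagocyte-marker UMIs. Phagocytes needed at least 1% of UMIs and 2 markers of the phagocyte list, under 4 stromal and under 3 lymphoid, mast or neutrophil markers, and 1202 iron-positive and 193 iron-negative cells lay within 25% of the 1% cut. UMIs were summed per class and library and given as CPM. Ratios carry exact conditional 95% intervals, and a count of 0 allows up to 3 counts. Log2 ratios over all genes added 0.5 to each count, a step tested on simulated data. RNA of other cells in phagocytes was traced by the Cdh5 level times each gene's ratio to Cdh5 in endothelial-gated cells, and likewise by Rgs5 with iron-positive pericyte-gated cells for both libraries. Named genes were the members, pathway genes past 1.5-fold at 10 CPM and the 5 closest to each member; the other pathway genes, Cdh5 and Rgs5 were named after their values were seen. Sums and intervals used scipy 1.17.1 with pandas 2.3.3 and numpy 2.4.6 in Python 3.11.15, and plots matplotlib 3.10.9.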

Additional observations from a re-analysis of the deposited data

Results flagged for a closer look

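Barcodes left out by the mitochondrial and gene limits also held endothelin transcripts. In the 1525 left-out iron-positive barcodes there were 60 UMIs of Edn1, 242 of Ece1, 10 of Ednra and 136 of Ednrb, above the 3 counts that a count of 0 allows. In the 721 left-out iron-negative barcodes there were 7 UMIs of Ece1 and 6 of Ednrb.

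The ratio of Ednrb, iron-positive over iron-negative, was 0.571 (0.494 to 0.658) in the Ly6c2 Plac8 state of phagocytes and 1.26 (1.14 to 1.40) in the Cd209f Cd163 Lyve1 state, so the libraries differed in opposite directions. The difference between the states was not tested, since each fraction has 1 library.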

How the results depend on the processing

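Of 81 alternative values, 59 stayed within the counting interval of the reported value or, for the single UMI of Edn3, left it as it was, 20 left it and 2 turned the direction. No paired analysis was possible because each group has 1 library and the labels carry no replicate numbers. The log2 ratio of Ednrb in phagocytes (1.44) was 1.16 as a mean of each cell's CPM, 1.04 with cells thinned to 2000 UMIs, 1.55 with scaling by the median ratio over genes and 1.93 without the Cd209f and Retnla states. That of Ece1 (0.19) was 0.62 as a mean of each cell's CPM, 0.30 with median scaling, -0.47 with 10% free RNA subtracted and -0.12 with the RNA traced by Cdh5 and Rgs5 subtracted, so its direction is not settled. That of Edn1 (1.15) was 1.60 as a mean of each cell's CPM, 0.18 with 10% free RNA subtracted and 0.80 with the traced RNA subtracted. In iron-positive cells, Ednrb in pericyte-gated cells (706 CPM) was 758.5 as a mean of each cell's CPM and 752.5 thinned. It was 761 in pericyte-gated cells that did not reach the endothelial list, a setting that kept those reaching the mesenchymal list. Ednra in mesenchymal-gated cells (32.0 CPM) was 24.5 thinned. Edn1 in endothelial-gated cells (97.5 CPM) was 112.5 as a mean of each cell's CPM, 103 thinned and 113 without cells above the 99th percentile of UMIs. Ece1 there (407 CPM) was 465, 459 and 468 under the same settings and 450 in cells of 1 stromal list. The causes were not tested. The settings of 1 stromal list and of the endothelial list in pericyte-gated cells were chosen after seeing the data. So were those of the Cd209f and Retnla states, of the 10 highest Edn1 cells and of traced RNA. Depth limits Edn3, the T or NK background in both libraries, and the iron-negative vessel classes of 14 and 1 cells.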

Other observations

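Neutrophil-gated cells held Ednrb in a few cells: 22 UMIs in 3 of 61 iron-positive cells (up to 17 in a cell) and 15 UMIs in 3 of 15 iron-negative cells (up to 9 in a cell).

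Cells with both stromal and phagocyte markers had 36.9 CPM of Edn1 (32.3 to 42.1), 100.5 CPM of Ece1, 12.3 CPM of Ednra and 61.9 CPM of Ednrb in 343 iron-positive cells, and 3.82 CPM, 38.2 CPM, 9.93 CPM and 3.05 CPM of the same genes in 54 iron-negative cells. Ungated cells, with medians of 1555 UMIs in the iron-positive and 2032 UMIs in the iron-negative library, held 69.8 CPM and 20.3 CPM of Ednrb and 109.5 CPM and 20.3 CPM of Ece1, and in the iron-positive library up to 93 UMIs of Ednrb in a cell.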
